A study of Mus musculus with 12 samples.

Results

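The 35 genes described here encode proteins of the lysosome and of autophagy. They comprise 19 soluble hydrolases and hydrolase cofactors, 8 proteins of the lysosomal membrane or of its acidification, and 8 proteins of autophagy and its regulation. The genes were chosen for their known roles, with earlier results of these data known, and the rows carrying their names were taken from both expression tables. All 35 were listed among the 43280 entries of the table for the IDH2 mutant, and 34 among the 23930 entries of the table for 2-HG. A gene was tested in a table if it had a mean of at least 1 RPM (reads per 1000000 reads counted on genes) over the 6 libraries, and 32 of the 35 passed this filter in each table.

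RNA was measured in mouse embryonic fibroblast (MEF) cells derived from C57BL/6 embryos of day 13.5, a line that had become immortal spontaneously. Control cells carried an empty retroviral vector with a puromycin resistance gene, and 2MUT cells carried the same vector with a FLAG-tagged human IDH2 bearing a cancer-associated mutation, and both were selected with puromycin. The mutant enzyme converts α-KG to 2-hydroxyglutarate (2-HG). For the second experiment, 2-HG(+) cells were given 300 μM of a membrane-permeant 2-HG for 24 h and 2-HG(-) cells were given the solvent DMSO for 24 h according to the labels, although the study also calls them non-treated. Each of the 4 groups had 3 libraries. No label states that these came from separate cultures, so the p-values measure the spread between libraries, which may be technical. The comparisons asked which genes followed the expression of the mutant enzyme and which followed the metabolite added from outside. No library came from cells given wild-type IDH2, so the mutation and the added IDH2 protein itself cannot be told apart.

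Lysosomes are acidic organelles in which soluble hydrolases break down proteins, glycans and lipids delivered by endocytosis or by autophagy. A proton pump, the V-ATPase, acidifies the lumen, heavily glycosylated membrane proteins line the inner face of the membrane, and autophagy proteins build the vesicle that carries cytoplasm to the lysosome. Many of these genes carry an E-box in the promoter that is bound by TFEB and related factors, a sequence known as the CLEAR element, and TFEB itself is held in the cytoplasm by mTORC1.

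Each library had 6472439 to 7313602 reads counted on genes in the mutant experiment and 14959318 to 18363768 in the 2-HG experiment. A count of 3 reads corresponds to 0.41 to 0.464 RPM in the former and to 0.163 to 0.201 RPM in the latter, and such limits cover counting error only. The fibroblast markers (Col1a1, Col1a2, Pdgfra, Pdgfrb, Thy1, Vim and S100a4) summed to 10831 to 11922 RPM in Control, 7514 to 8118 RPM in 2MUT, 19698 to 21235 RPM in 2-HG(-) and 13530 to 14755 RPM in 2-HG(+), with Col1a1, Col1a2 and Vim high in every library and S100a4 at most at 0.293 RPM or not listed. Of the 6 fibroblast markers tested, 5 fell in 2MUT, and 3 fell and 1 rose with 2-HG. In 2MUT the call on Pdgfrb held in 0 of 6 fits that left out a library and that on Col1a1 in 3. There edgeR had 4 of these markers lower and DESeq2 had 5. The library kit amplified a short target of each transcript, so RPM is not set between genes, and the tables were normalized separately, so changes are given within a table. In bulk RNA, fewer cells expressing a gene and less RNA per cell cannot be told apart.

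RefSeq promoters (GRCm38.p6, 250 bases before to 50 bases after the start of transcription) were found for 30 of the 35 genes. The E-box CACGTG, which reads the same on both strands, was present in 12 of these 30 genes (40%), against 8.09% of all 27025 genes with a promoter and 12.0% of the 8044 matched genes tested in the mutant experiment. The longer form TCACGTGA, which contains CACGTG, was present in 6 of the 30 genes (20%), against 1.12% of all genes and 2.32% of the matched genes tested in the mutant experiment. The following stretches are shown because they hold E-boxes of genes on which the results turn, with the E-box in capitals and each read 5′ to 3′ on the strand of the gene, in GRCm38.p6. That of Lamp1 covers the 70 bases up to the start of transcription (chr8:13159091-13159160, plus strand) and that of Ctsf lies 120 to 61 bases before the start (chr19:4855045-4855104, plus strand), both outside annotated exons. Those of Ctsd (chr7:142387908-142387937, minus strand) and Ctsa (chr2:164833745-164833772, plus strand) lie before the RefSeq start but inside a UTR exon of a longer GENCODE transcript.
Lamp1: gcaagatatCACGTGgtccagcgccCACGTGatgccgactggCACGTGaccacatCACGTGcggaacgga
Ctsf: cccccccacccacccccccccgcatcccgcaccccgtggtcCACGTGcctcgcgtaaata
Ctsd: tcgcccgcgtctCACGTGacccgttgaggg
Ctsa: acaatgagcaaactgtCACGTGatgcag
Lamp1 held 4 E-boxes within these 70 bases, more than any other of the 12 genes, and Ctsa, Ctsd, Gla and Mcoln1 held 2 each, of which the stretches of Ctsa and Ctsd show 1. A match of letters is a description and not a measured binding site.

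**Figure D1:**
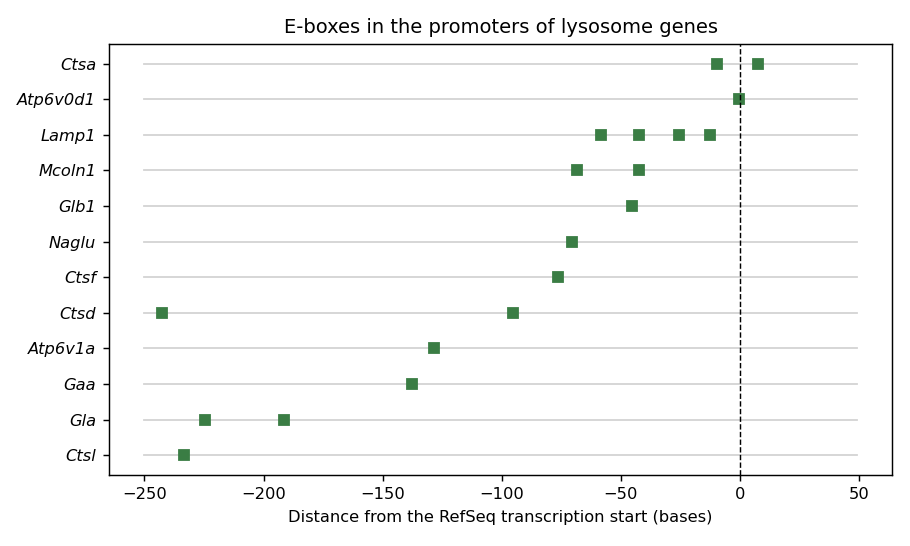
Positions of the E-boxes in the RefSeq promoters of the 12 lysosome genes that hold any; the x axis gives the distance in bases from the start of transcription (dashed line), each square is 1 E-box and each grey line is the window searched. The 4 squares of Lamp1 lie within the last 70 bases before the start.

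In 2MUT cells, 11 of the 32 tested genes rose and 2 fell relative to Control, while 19 did not pass the test. The genes that rose were the membrane proteins Lamp1, Lamp2 and Npc1, the V-ATPase subunit Atp6v0d1, and the hydrolases or cofactors Gusb, Hexa, Ctsl, Ctsd, Psap, Tpp1 and Ctsb; those that fell were the hydrolase Gla and the autophagy gene Gabarapl1. Across all 11065 genes tested, 33.8% passed the test, 16.5% higher and 17.3% lower in 2MUT. The median log2 fold change was 0.12 for the 32 genes and 0.01 for all genes tested. The libraries of the groups did not overlap for 10 genes that were higher and 2 that were lower in 2MUT, against 23.5% and 24% of all genes. The count of 2 genes lower was 1 without Control replicate 1 and without each 2MUT library, since Gabarapl1 was lost. The 35 genes together took 1.44% ± 0.0624 of the counted reads in Control and 1.78% ± 0.0535 in 2MUT (SD, n = 3).

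With 2-HG, most of the genes that passed were lower. Of the 32 tested genes, 16 fell and 3 rose relative to 2-HG(-), and 13 did not pass the test. The genes that fell were 12 hydrolases and cofactors, Lamp2, and the autophagy genes Ulk1, Wipi1 and Gabarapl1; those that rose were Stbd1, Gusb and Atp6v1h. Across all 10384 genes tested, 32.8% passed the test, 16.1% higher and 16.7% lower in 2-HG(+). The median log2 fold change was -0.37 for the 32 genes and -0.02 for all genes tested. The libraries of the groups did not overlap for 4 genes that were higher and 19 that were lower in 2-HG(+), against 22.2% and 24.1% of all genes. The share of reads on the 34 genes listed in this table was 1.64% ± 0.0529 in 2-HG(-) and 1.29% ± 0.0270 in 2-HG(+) (SD, n = 3). The count of genes that rose with 2-HG was 1 without 2-HG(-) replicate 1 and 1 without 2-HG(+) replicate 2; only Stbd1 remained among these 3 genes in those fits.

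**Figure D2:**
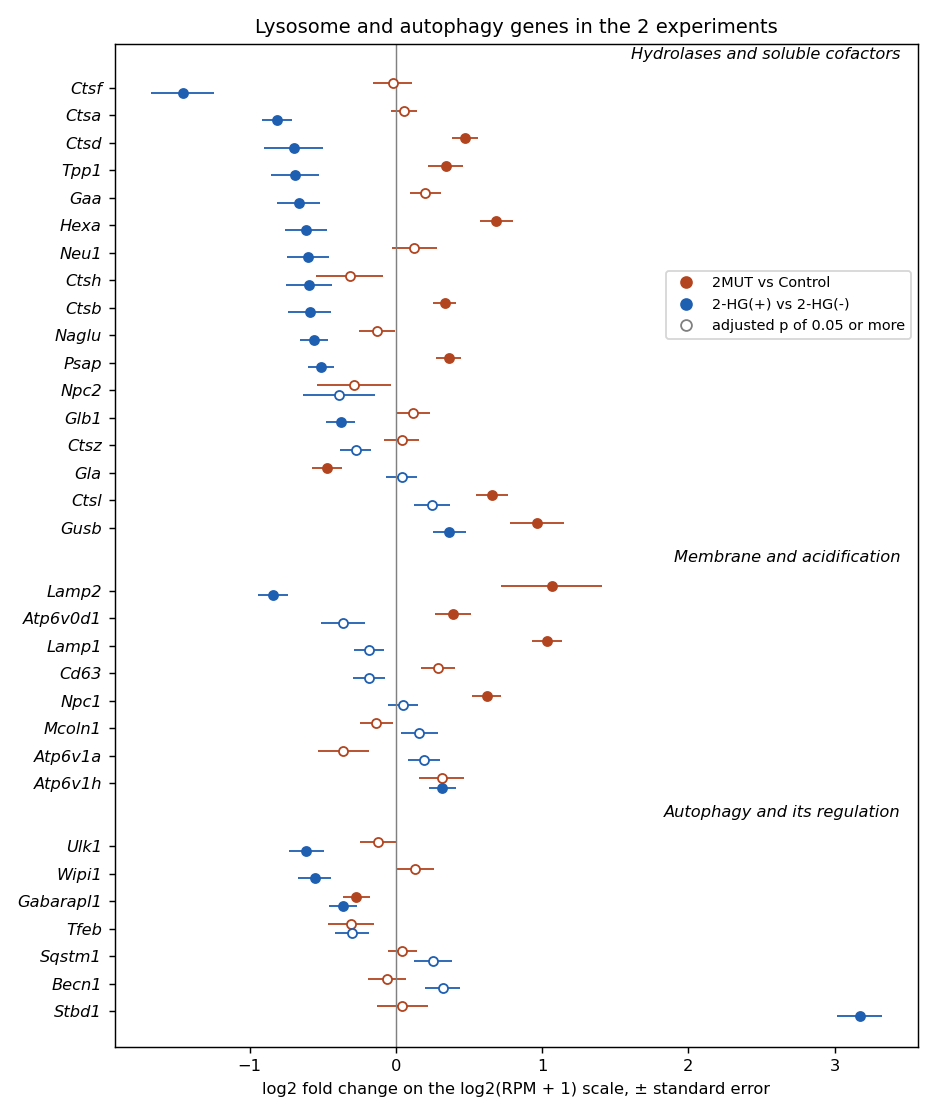
Log2 fold change of the 32 tested genes, on the log2(RPM + 1) scale, in 2MUT against Control (red) and in 2-HG(+) against 2-HG(-) (blue), with bars of 1 standard error; filled points passed the test and open points did not. Most blue points of the hydrolases lie left of 0, while the filled red points of this class lie right of 0 except that of Gla.

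The hydrolases and their soluble cofactors mostly rose in 2MUT and mostly fell with 2-HG, among those that passed. Of the 17 tested, 7 rose and 1 fell in 2MUT, whereas 1 rose and 12 fell with 2-HG. The shares of all genes were 16.5% higher and 17.3% lower in 2MUT, and 16.1% higher and 16.7% lower with 2-HG. The test per gene without moderation ended 6 of these falls with 2-HG, those of Ctsb, Ctsd, Gaa, Hexa, Neu1 and Tpp1 (adjusted p = 0.0874, 0.166, 0.080, 0.078, 0.0748 and 0.092), as well as the rises of Gusb in 2MUT (0.0647) and with 2-HG (0.0791) and that of Tpp1 in 2MUT (0.179). Their median log2 fold change was 0.12 in 2MUT and -0.59 with 2-HG. Their summed share of reads was 0.931% ± 0.0305 in Control and 1.18% ± 0.0241 in 2MUT, and 0.967% ± 0.0442 in 2-HG(-) and 0.711% ± 0.0441 in 2-HG(+) (SD, n = 3). In both experiments the libraries of the treated group lay wholly on one side of those of its control for this sum.

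Cathepsin D, an aspartic protease of the lysosome encoded by Ctsd (chr7:142375911-142388038, GRCm38, minus strand), was among the genes that moved in opposite directions. Its level was 1986, 1924 and 1758 RPM in the Control libraries and 2802.5, 2436 and 2623 RPM in the 2MUT libraries. Every 2MUT library was above every Control library, with a log2 fold change of 0.47 ± 0.09 (SE) and an adjusted p of 0.00201. With 2-HG it went from 1797, 2099.9 and 1728 RPM to 1467, 796 and 1304 RPM. The groups again did not overlap, 2-HG(+) replicate 2 lay farthest down, and the log2 fold change was -0.70 ± 0.20 (adjusted p = 0.0265). This fall did not pass the test without 2-HG(-) replicate 1 (adjusted p = 0.0569), replicate 2 (0.0743) or replicate 3 (0.0583).

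The β-hexosaminidase subunit gene Hexa, whose product cleaves GM2 ganglioside, was at 135, 166 and 177 RPM in Control and at 265, 256 and 245 RPM in 2MUT. It rose by 0.69 ± 0.11 on the log2 scale (adjusted p = 0.000875). In 2-HG(-) it was at 100.0, 95.2 and 70.4 RPM and in 2-HG(+) at 51.9, 58.9 and 60.1 RPM, a log2 fold change of -0.61 ± 0.14 (adjusted p = 0.00892). The groups of neither experiment overlapped for this gene. Psap encodes prosaposin, the precursor of the saposins that present sphingolipids to hydrolases. It was at 2209, 2492 and 2440.0 RPM in Control and at 2902, 3148 and 3121 RPM in 2MUT (log2 fold change 0.36 ± 0.08, adjusted p = 0.00705). It was at 1164, 1227 and 1208 RPM in 2-HG(-) and at 859.5, 838 and 829.5 RPM in 2-HG(+) (log2 fold change -0.51 ± 0.09, adjusted p = 0.00219). Its libraries were tight in each group and separate between groups, and with quantile normalization its rise in 2MUT had an adjusted p of 0.0509.

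Ctsb and Tpp1 followed the same pair of directions. Ctsb encodes cathepsin B, a cysteine protease, and its 2MUT libraries (1714, 1692 and 1789 RPM) all exceeded its Control libraries (1402, 1357 and 1359 RPM), with a log2 fold change of 0.33 ± 0.08 (adjusted p = 0.00664). Its level with 2-HG went from 2841, 2298 and 3213 RPM to 1608, 1886 and 2027 RPM, a log2 fold change of -0.59 ± 0.15 (adjusted p = 0.0129), and this call was lost without 2-HG(-) replicate 3, the highest library (adjusted p = 0.0608). Tpp1 encodes tripeptidyl peptidase, a serine protease. It was at 193, 246 and 249.5 RPM in Control and at 270.2, 325 and 275 RPM in 2MUT, with a log2 fold change of 0.34 ± 0.12 and an adjusted p of 0.0482, next to the threshold. That call was lost without Control replicate 1 (adjusted p = 0.137) and without 2MUT replicate 1 (0.0703), replicate 2 (0.187) or replicate 3 (0.0789). The fall of Tpp1 with 2-HG was larger, from 73.2, 55.8 and 80.4 RPM to 35.6, 43.5 and 49.4 RPM (log2 fold change -0.69 ± 0.16, adjusted p = 0.0099).

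A further 7 hydrolases fell with 2-HG and did not pass the test in 2MUT. The largest fall of the whole list was that of Ctsf, which encodes the cysteine protease cathepsin F (chr19:4855130-4860918, GRCm38, plus strand) and whose promoter stretch is printed above. Its level was 21.0, 13.2 and 10.7 RPM in 2-HG(-) and 4.17, 5.17 and 4.57 RPM in 2-HG(+), so that its mean was 3.23-fold lower. The log2 fold change was -1.46 ± 0.22 (adjusted p = 0.000872), on 63 to 385 reads per library. In the mutant experiment Ctsf was at 81.8, 107 and 81.9 RPM in Control and at 95.8, 92.2 and 77.7 RPM in 2MUT, and these libraries overlapped.

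Ctsa encodes the protective protein/cathepsin A, a carboxypeptidase that stabilizes β-galactosidase and neuraminidase, and it fell together with the genes of both partners. Ctsa (chr2:164832873-164841032, GRCm38, plus strand) was at 476, 409 and 440.2 RPM in 2-HG(-) and at 234, 247 and 273 RPM in 2-HG(+), with a log2 fold change of -0.81 ± 0.10 (adjusted p = 0.000324). The neuraminidase gene Neu1 went from 44.7, 36.6 and 37.6 RPM to 21.4, 29.8 and 26.7 RPM (log2 fold change -0.60 ± 0.14, adjusted p = 0.0113). The β-galactosidase gene Glb1 went from 122, 106 and 115 RPM to 82.5, 87.2 and 94.0 RPM (log2 fold change -0.38 ± 0.10, adjusted p = 0.0173). For all 3 genes of this complex every 2-HG(+) library was below every 2-HG(-) library. The call on Glb1 was lost without 2-HG(-) replicate 1 (adjusted p = 0.0616), 2-HG(-) replicate 3 (0.0632) or 2-HG(+) replicate 2 (0.0612). In 2MUT their log2 fold changes were 0.06 for Ctsa, 0.12 for Neu1 and 0.12 for Glb1, none of which passed the test.

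The glycogen-degrading acid α-glucosidase gene Gaa and the heparan sulfate-degrading Naglu fell as well. Gaa was at 265, 191 and 241 RPM in 2-HG(-) and at 122, 155 and 160.3 RPM in 2-HG(+) (log2 fold change -0.66 ± 0.15, adjusted p = 0.0071). Naglu was at 82.6, 78.9 and 86.6 RPM and then at 56.3, 53.2 and 58.3 RPM (log2 fold change -0.56 ± 0.10, adjusted p = 0.00198). Neither pair of groups overlapped. Ctsh, which encodes the aminopeptidase cathepsin H, was close to the filter, at 1.94 to 2.89 RPM in 2-HG(-) and 1.11 to 1.32 RPM in 2-HG(+), on 17 to 53 reads per library. Its log2 fold change of -0.59 ± 0.16 had an adjusted p of 0.0173, which rose to 0.0682 without 2-HG(-) replicate 1, to 0.0522 without 2-HG(-) replicate 3, to 0.0518 without 2-HG(+) replicate 3 and to 0.081 with quantile normalization. In 2MUT the log2 fold change was 0.20 for Gaa, -0.13 for Naglu and -0.31 for Ctsh, and none passed the test.

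Gusb was the only hydrolase of the list that passed the test as higher in both experiments. It encodes β-glucuronidase (chr5:129989011-130003049, GRCm38, minus strand), an enzyme of glycosaminoglycan breakdown. Its level was 19.4, 33.2 and 26.1 RPM in Control and 44.5, 57.4 and 52.2 RPM in 2MUT, a mean 1.96-fold higher with a log2 fold change of 0.97 ± 0.19 (adjusted p = 0.0022). With 2-HG it went from 38.3, 41.0 and 44.8 RPM to 50.2, 59.8 and 50.9 RPM, a log2 fold change of 0.37 ± 0.11 (adjusted p = 0.0349). All treated libraries were above all control libraries in both experiments. The rise with 2-HG passed the test in 1 of the 6 fits that left out a library, the one without 2-HG(+) replicate 1; without 2-HG(-) replicates 1, 2 and 3 its adjusted p was 0.11, 0.0697 and 0.0537, and without 2-HG(+) replicates 2 and 3 it was 0.155 and 0.0544.

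Ctsl and Gla passed the test in 2MUT alone. Ctsl, the gene of the cysteine protease cathepsin L, was at 773, 683 and 809 RPM in Control and at 1174, 1364 and 1054 RPM in 2MUT (log2 fold change 0.66 ± 0.11, adjusted p = 0.000911). With 2-HG its libraries overlapped, at 900.3, 1156 and 1036 RPM in 2-HG(-) and 1367, 1169 and 1132 RPM in 2-HG(+). Gla encodes α-galactosidase A, which removes galactose from globotriaosylceramide, and it was the only hydrolase of the list that fell in 2MUT. It was at 147, 142 and 124 RPM in Control and at 96.9, 103 and 96.5 RPM in 2MUT (log2 fold change -0.47 ± 0.10, adjusted p = 0.00542), with no overlap. In the 2-HG experiment Gla lay between 26.5 and 29.4 RPM in all 6 libraries, with a log2 fold change of 0.04 ± 0.11.

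The remaining hydrolase-class genes did not pass either test or were too low to test. Ctsz, encoding the carboxypeptidase cathepsin Z, had a log2 fold change of 0.04 ± 0.12 in 2MUT. With 2-HG that of Ctsz was -0.27 ± 0.11, and its 2-HG(+) libraries (81.3 to 88.5 RPM) all lay below its 2-HG(-) libraries (90.6 to 110.3 RPM) with an adjusted p of 0.0762, which was 0.0263 without 2-HG(-) replicate 2 and 0.0446 with quantile normalization. Npc2 encodes the soluble protein that hands cholesterol to NPC1. Its libraries were widely spread, from 47.4 to 111 RPM in Control and from 1103 to 1921 RPM in 2-HG(-), and its log2 fold changes were -0.29 ± 0.25 and -0.39 ± 0.25. Control replicate 3 was the lowest Control library, and without it the log2 fold change of Npc2 in 2MUT was -0.65 with an adjusted p of 0.00166. Ctsk, the cathepsin K gene known from osteoclasts, was listed at 0.148 RPM in Control replicate 1 and at 0 in the other 11 libraries. Ctss, the cathepsin S gene known from antigen-presenting cells, was listed at 0.163 RPM in 2-HG(-) replicate 1 and at 0 in the other 11 libraries. All of these values are at or under the level of 3 reads in the library concerned.

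**Figure D3:**
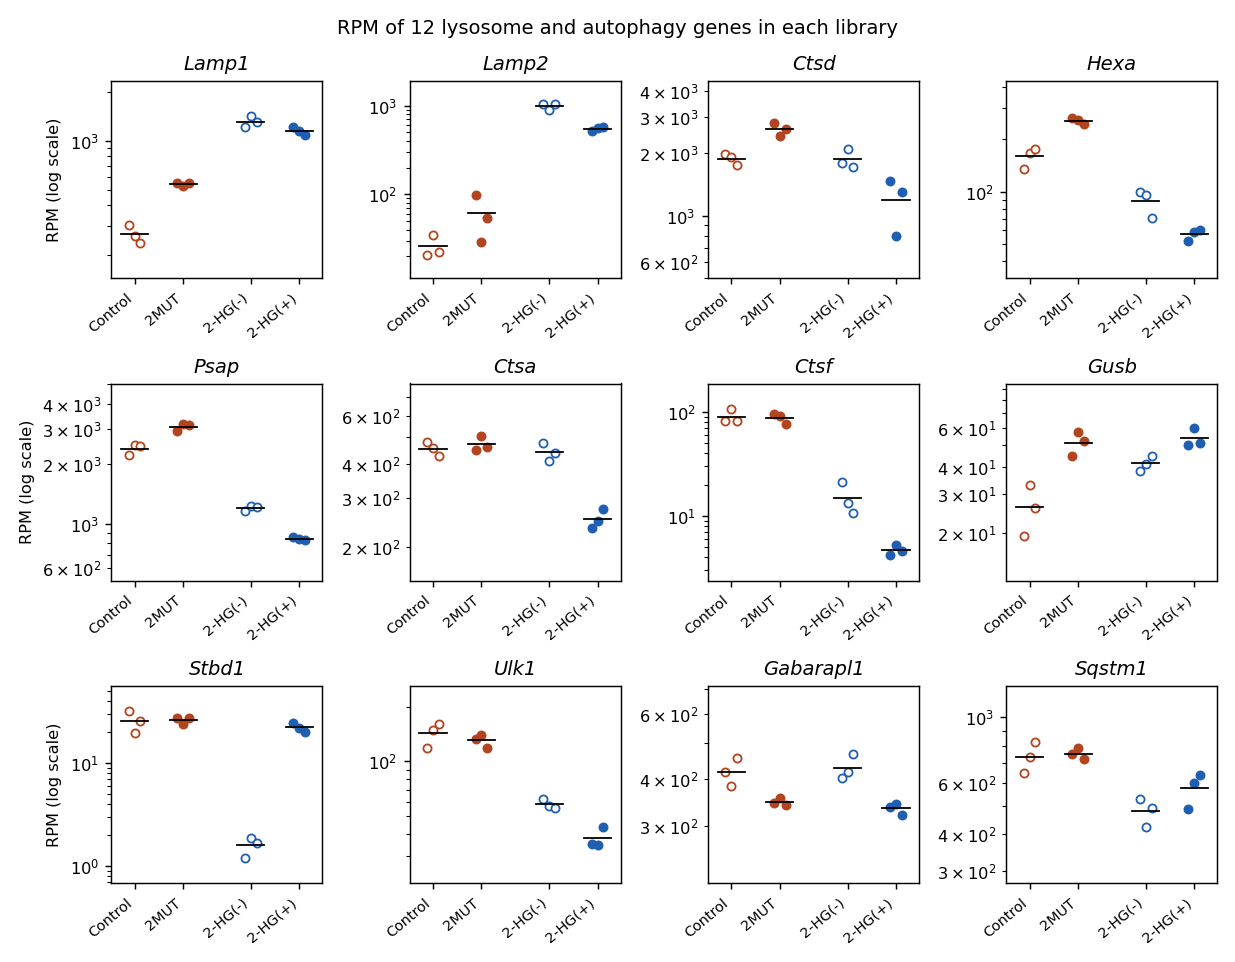
RPM of 12 of the genes in each library, on log axes that differ between panels; open circles are Control or 2-HG(-) libraries, filled circles are 2MUT (red) or 2-HG(+) (blue) libraries and black lines are means of 3. Lamp1 is higher in all 2MUT libraries, Lamp2 in 2MUT ranges from 29.4 to 99.0 RPM, and Stbd1 lies between 1.20 and 1.87 RPM in 2-HG(-) against 20.2 to 24.5 RPM in 2-HG(+).

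Among the 8 genes of the membrane and of acidification, 4 rose in 2MUT and none fell. Lamp1 and Npc1 kept their rise without each library in turn. The rises of Lamp2 and Atp6v0d1 were both lost without Control replicate 1, 2MUT replicate 1 or 2MUT replicate 3. Both were also lost in the fit without a trend of variance and in the test per gene without moderation. With 2-HG, 1 of the 8 rose and 1 fell, near the shares of all genes (16.1% higher and 16.7% lower), while in 2MUT 16.5% of all genes rose. The count of 0 genes lower in 2MUT was the same at an unadjusted p under 0.05 and with edgeR and DESeq2. The median log2 fold change was 0.35 in 2MUT and -0.07 with 2-HG. The summed share of reads was 0.347% ± 0.0383 in Control and 0.447% ± 0.0465 in 2MUT, and 0.549% ± 0.0181 in 2-HG(-) and 0.461% ± 0.0126 in 2-HG(+) (SD, n = 3). Most of the sum in the mutant experiment came from Cd63, which did not pass the test: the sum was 3134 to 3885 RPM in Control and 4183 to 5011 RPM in 2MUT, and Cd63 took 2849.9 ± 374 and 3479 ± 427 RPM of it.

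Lamp1 (chr8:13159161-13175338, GRCm38, plus strand) encodes a major glycoprotein of the lysosomal membrane, and its promoter stretch with 4 E-boxes is printed above. It was at 302, 261 and 235 RPM in Control and at 548, 529.8 and 549 RPM in 2MUT. The 2MUT libraries were nearly equal and all above the Control libraries, and the mean was 2.04-fold higher (log2 fold change 1.03 ± 0.10, adjusted p = 3.33e-05). With 2-HG the libraries overlapped, at 1207, 1413 and 1303 RPM in 2-HG(-) and 1214, 1145 and 1089 RPM in 2-HG(+), with a log2 fold change of -0.18 ± 0.10 that did not pass the test.

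Lamp2 (chrX:38401357-38456454, GRCm38, minus strand) encodes the related glycoprotein that also serves as a receptor in chaperone-mediated autophagy. In the mutant experiment it was at 20.7, 34.9 and 22.6 RPM in Control and at 99.0, 29.4 and 54.2 RPM in 2MUT. These groups overlapped, since 2MUT replicate 2 was below Control replicate 2, and the log2 fold change was 1.06 ± 0.34 (adjusted p = 0.0337). The call was lost without Control replicate 1 (adjusted p = 0.118), without 2MUT replicate 1 (0.119, log2 fold change 0.64) or without 2MUT replicate 3 (0.0804), and DESeq2 gave an adjusted p of 0.061. In the 2-HG experiment Lamp2 was at 1033, 885 and 1034 RPM in 2-HG(-) and at 512, 559 and 573 RPM in 2-HG(+), a mean 1.80-fold lower. That log2 fold change was -0.84 ± 0.10 (adjusted p = 0.000292), with wide separation of the groups.

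Npc1, which encodes the membrane transporter that carries cholesterol out of the lysosome, was at 87.2, 81.1 and 81.9 RPM in Control and at 135, 129 and 122 RPM in 2MUT (log2 fold change 0.62 ± 0.10, adjusted p = 0.00076). In the 2-HG experiment it lay between 60.1 and 71.2 RPM in all 6 libraries, and the log2 fold change was 0.05 ± 0.10. Cd63 encodes a tetraspanin of late endosomes and lysosomes, and its 2MUT libraries (3186 to 3969 RPM) overlapped its Control libraries (2559 to 3272 RPM), with a log2 fold change of 0.29 ± 0.11 and an adjusted p of 0.0741. Its adjusted p was 0.0237 without Control replicate 2 and 0.0476 with DESeq2. With 2-HG its log2 fold change was -0.18 ± 0.11, and it did not pass the test although the groups did not overlap. Mcoln1, the gene of a calcium channel of the lysosomal membrane, had log2 fold changes of -0.13 ± 0.11 and 0.16 ± 0.13, with overlapping groups in both experiments.

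Of the 3 V-ATPase subunits, 1 passed in each experiment, near the shares of all genes that passed (33.8% in 2MUT and 32.8% with 2-HG). Differences between subunits were not tested. Atp6v0d1 encodes a subunit of the membrane sector of the pump, and it was at 86.0, 78.3 and 105 RPM in Control and at 114, 117 and 121 RPM in 2MUT (log2 fold change 0.39 ± 0.12, adjusted p = 0.0275). This call held without Control replicate 3 and was lost without each of the other 5 libraries, with adjusted p of 0.0651 and 0.0894 without Control replicates 1 and 2 and of 0.0652, 0.0755 and 0.0882 without 2MUT replicates 1, 2 and 3. With 2-HG its log2 fold change was -0.36 ± 0.15 (adjusted p = 0.0939), and 0.0387 without 2-HG(+) replicate 3. Atp6v1h and Atp6v1a encode subunits of the cytoplasmic sector. Atp6v1h was at 89.7, 98.9 and 104 RPM in 2-HG(-) and at 119.7, 124 and 121 RPM in 2-HG(+) (log2 fold change 0.32 ± 0.09, adjusted p = 0.028). Its call was lost without 2-HG(-) replicate 1 (adjusted p = 0.0943) or 2-HG(+) replicates 2 and 3 (0.102 and 0.0678). In 2MUT its log2 fold change was 0.31 ± 0.15 with overlapping groups (adjusted p = 0.141), and 0.0368 without Control replicate 1. Atp6v1a, the gene of the catalytic subunit, had log2 fold changes of -0.36 ± 0.17 and 0.19 ± 0.11, and neither passed the test.

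**Figure D4:**
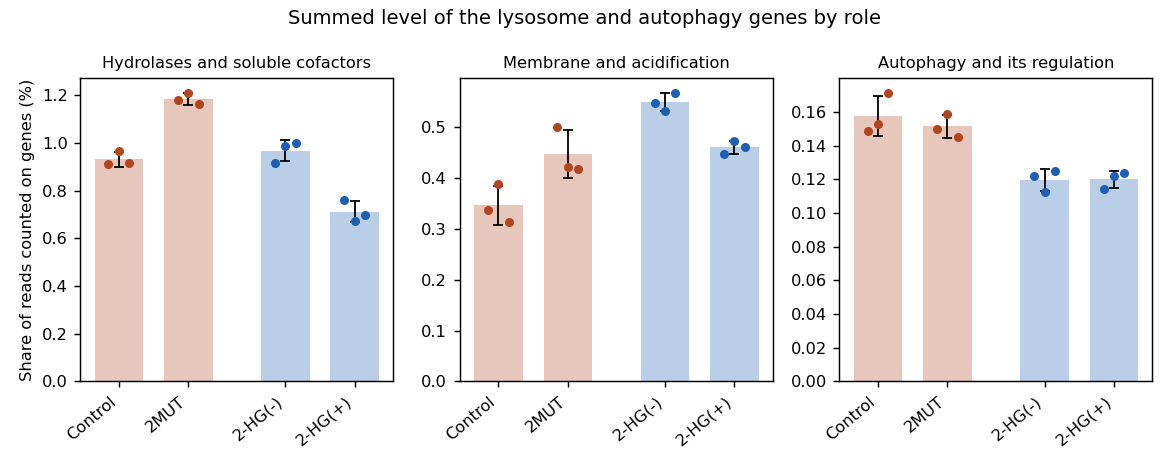
Share of counted reads, in percent, taken by the 19 hydrolase-class genes, the 8 membrane and acidification genes and the 8 autophagy genes (7 in the 2-HG table, which does not list Map1lc3b); bars are means of 3 libraries, error bars are SD and points are libraries. The hydrolase share is 1.18% in 2MUT against 0.931% in Control and 0.711% in 2-HG(+) against 0.967% in 2-HG(-), while the autophagy share is 0.151% against 0.158% and 0.120% in both 2-HG groups.

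Of the 7 autophagy genes tested, 1 fell and none rose in 2MUT, near the shares of all genes at this size of list (16.5% higher and 17.3% lower). The count of 0 genes higher was the same at an unadjusted p under 0.05 and with edgeR and DESeq2. With 2-HG, 3 fell and 1 rose, where 16.7% of all genes fell and 16.1% rose. The median log2 fold change was -0.06 in 2MUT and -0.30 with 2-HG. Their summed share of reads was 0.158% ± 0.0119 in Control and 0.151% ± 0.00704 in 2MUT, and 0.120% ± 0.00648 in 2-HG(-) and 0.120% ± 0.00516 in 2-HG(+) (SD, n = 3), with overlap in both experiments.

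Stbd1 had the largest change of the list. It encodes a glycogen-binding protein that tethers glycogen to membranes and binds GABARAPL1, and it lies on chromosome 5 (chr5:92603041-92606579, GRCm38, plus strand). In the 2-HG experiment it was at 1.20, 1.87 and 1.68 RPM in 2-HG(-) and at 24.5, 21.9 and 20.2 RPM in 2-HG(+). The lowest 2-HG(+) library was far above the highest 2-HG(-) library, the mean was 14.0-fold higher and the log2 fold change was 3.17 ± 0.15 (adjusted p = 1.63e-06). The log2 scale with 1 RPM added understates the change of a gene this low, and the log2 fold change ran from 3.17 to 3.84 over the alternatives that kept all libraries. In the mutant experiment Stbd1 was at 31.7, 19.7 and 25.6 RPM in Control and at 27.2, 23.7 and 27.2 RPM in 2MUT, with a log2 fold change of 0.04 ± 0.18.

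Ulk1 and Wipi1, which act early in autophagy, fell with 2-HG. Ulk1, which encodes the kinase that starts autophagosome formation and is a target of mTORC1, was at 61.8, 57.1 and 55.4 RPM in 2-HG(-) and at 35.3, 34.6 and 43.5 RPM in 2-HG(+) (log2 fold change -0.61 ± 0.12, adjusted p = 0.00373). Wipi1, whose product binds phosphoinositide on the forming membrane, went from 81.7, 68.1 and 74.1 RPM to 47.4, 48.3 and 55.8 RPM (log2 fold change -0.55 ± 0.11, adjusted p = 0.00483). Neither gene overlapped between the groups, and both kept their call without each library in turn. Neither passed in 2MUT, where the changes were -0.12 ± 0.13 for Ulk1 and 0.13 ± 0.13 for Wipi1. Becn1, the gene of a subunit of the lipid kinase complex at the same step, was at 118, 133 and 132 RPM in 2-HG(-) and at 188, 154 and 141 RPM in 2-HG(+), without overlap and with an adjusted p of 0.0671, which was 0.0385 without 2-HG(+) replicate 3. Its log2 fold change was 0.32 ± 0.12 with 2-HG and -0.06 ± 0.13 in 2MUT.

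Gabarapl1, a member of the ubiquitin-like family that coats the autophagosome membrane, was the only gene of the list that passed the test as lower in both experiments. It was at 418, 384 and 457 RPM in Control and at 345, 356 and 342 RPM in 2MUT (log2 fold change -0.27 ± 0.09, adjusted p = 0.042). With 2-HG it went from 404, 418 and 467 RPM to 338, 343 and 321 RPM (log2 fold change -0.36 ± 0.09, adjusted p = 0.0162). Neither experiment showed overlap between its groups. The fall in 2MUT held without Control replicate 2 only; its adjusted p was 0.0624 and 0.13 without Control replicates 1 and 3, and 0.115, 0.0895 and 0.119 without 2MUT replicates 1, 2 and 3. The fall with 2-HG was lost without 2-HG(-) replicate 3 (0.0771) or 2-HG(+) replicate 3 (0.054).

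The receptor, the regulator and the remaining coat gene did not pass. Sqstm1 encodes p62, a receptor that brings ubiquitylated cargo to autophagosomes, and it changed by 0.04 ± 0.10 on the log2 scale in 2MUT, against 0.25 ± 0.13 with 2-HG (adjusted p = 0.159, and 0.0431 without 2-HG(+) replicate 1). Tfeb, the gene of the factor that binds the E-box shown above, was at 22.1 to 27.5 RPM in Control and 17.5 to 23.0 RPM in 2MUT, and at 22.5 to 24.5 RPM in 2-HG(-) and 17.6 to 20.2 RPM in 2-HG(+). Its log2 fold changes were -0.31 ± 0.16 and -0.30 ± 0.12, with adjusted p of 0.157 and 0.0776, and its groups overlapped in the mutant experiment only. RNA level says nothing of where the TFEB protein was in the cell. Map1lc3b, the gene of the autophagosome marker LC3B, was listed at 0.444, 0 and 0.547 RPM in Control and at 1.39, 0 and 0.413 RPM in 2MUT, with 0 to 9 reads per library, and had no entry under this name in the 2-HG table. LC3B is made by nearly all cells, so these values are not read as absence of the transcript.

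The difference between the experiments was tested for 9612 genes as the change in 2MUT minus the change with 2-HG over all 12 libraries. Of the 32 genes, 18 had a higher change in 2MUT and 3 a lower one, against 39.4% of all genes past the test, 19.9% higher and 19.5% lower. The 6 genes that rose in 2MUT and fell with 2-HG, Ctsb, Ctsd, Hexa, Lamp2, Psap and Tpp1, all passed this test, as opposite calls favour, with differences from 0.87 ± 0.12 for Psap to 1.91 ± 0.43 for Lamp2 and adjusted p from 5.98e-05 to 0.00345. They kept this call without each of the 12 libraries in turn, which adds no support to the calls on Lamp2, Tpp1, Ctsb and Ctsd that were lost within an experiment.

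The difference also passed for Lamp1 (1.22 ± 0.14, adjusted p = 1.83e-05), Npc1 (0.57 ± 0.14) and Atp6v0d1 (0.75 ± 0.21), which rose in 2MUT alone. Of the 9 genes that fell with 2-HG alone, 8 passed, with Ctsf the largest (1.43 ± 0.28, adjusted p = 0.00115) and Ctsh (adjusted p = 0.444) the exception. Stbd1 (-3.13 ± 0.24, adjusted p = 4.61e-07), Gla (-0.51 ± 0.14) and Atp6v1a (-0.55 ± 0.20) had the lower change in 2MUT. Cd63 passed (0.47 ± 0.16, adjusted p = 0.035) although it passed in neither experiment alone. For Gusb, Ctsl, Gabarapl1 and Atp6v1h, which passed in 1 or both experiments, the difference did not pass, with adjusted p of 0.0571, 0.0775, 0.604 and 0.984. That of Gusb passed without Control replicate 2 (0.0109) or 2MUT replicate 1 (0.0428), and that of Ctsl without 2MUT replicate 3 (0.0467), 2-HG(-) replicate 1 (0.0405) or 2-HG(+) replicate 1 (0.0441). Of the 21 differences, 16 held without each library; the calls on Naglu, Ulk1, Atp6v1a, Cd63 and Neu1 held in 3, 4, 4, 6 and 8 of the 12 fits, with a highest adjusted p of 0.0998, 0.109, 0.0919, 0.0945 and 0.0613. The loss for Neu1 occurred without Control replicate 1, 2MUT replicate 2, 2-HG(-) replicate 1 or 2-HG(+) replicate 1, and that for Cd63 without Control replicates 1 and 3, 2MUT replicate 1, 2-HG(-) replicates 1 and 3 or 2-HG(+) replicate 1. Ulk1 kept its call only without Control replicates 2 and 3, 2MUT replicate 3 or 2-HG(+) replicate 3, Atp6v1a only without Control replicate 3, 2MUT replicate 1, 2-HG(-) replicate 3 or 2-HG(+) replicate 3, and Naglu only without Control replicate 2, 2MUT replicate 3 or 2-HG(-) replicate 2.

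The E-box was found in 4 of the 9 matched genes that rose in 2MUT (Ctsd, Ctsl, Lamp1 and Atp6v0d1), in 1 of the 2 that fell (Gla) and in 7 of the 16 that did not pass. With 2-HG it was found in 6 of the 14 matched genes that fell (Ctsa, Ctsd, Ctsf, Gaa, Glb1 and Naglu), in none of the 2 that rose and in 6 of the 11 that did not pass. The antioxidant response element TGACNNNGC, bound by NRF2, was found on either strand in 8 of the 30 genes (26.7%), against 14.0% of all genes and 16.98% of the 8044 matched genes tested in the mutant experiment (1366 genes). They included Ctsd, Hexa, Psap and Tpp1 among the genes with opposite calls, which are named here after their values were seen, and Ctsz, Naglu, Atp6v1a and Map1lc3b. By call in 2MUT, it was found in 4 of the 9 matched genes that rose, 0 of the 2 that fell and 3 of the 16 that did not pass. With 2-HG it was found in 5 of the 14 that fell, 0 of the 2 that rose and 2 of the 11 that did not pass. The element TGATGCAA, bound by ATF4 with C/EBP factors, was found on either strand in none of the 30 promoters and in 1.03% of all genes.

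A wider list of 129 other lysosome and autophagy genes was counted with the same fits. In 2MUT, 110 were tested, 36 rose and 8 fell, with a median log2 fold change of 0.21, where 16.5% of all genes rose and 17.3% fell. With 2-HG, 113 were tested, 5 rose and 27 fell, with a median of -0.18, where 16.1% of all genes rose and 16.7% fell. The other hydrolases and soluble proteins numbered 13 higher and 2 lower of 31 in 2MUT and 2 higher and 18 lower of 31 with 2-HG. Sumf1, whose product activates sulfatases, went from 31.4 ± 2.86 RPM to 114 ± 12.7 RPM in 2MUT (log2 fold change 1.83 ± 0.13), and Gm2a, the GM2 activator that works with the HEXA product, from 313 ± 33.3 RPM to 1011 ± 78.0 RPM (1.69 ± 0.10). With 2-HG, Gm2a fell (-0.79 ± 0.13). Scpep1, a serine carboxypeptidase gene, changed in opposite directions, falling by 0.56 on the log2 scale in 2MUT and rising by 0.52 with 2-HG. Ctso, the cathepsin O gene, and Hgsnat, which acetylates heparan sulfate, had log2 fold changes of -0.99 ± 0.20 and 0.57 ± 0.12 with 2-HG, and Ctso rose in 2MUT (0.55 ± 0.15).

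Against the shares of all genes given above (16.5% higher and 17.3% lower in 2MUT, 16.1% and 16.7% with 2-HG), other membrane proteins numbered 7 higher and 1 lower of 17 in 2MUT and 1 higher and 0 lower of 18 with 2-HG by limma (3 lower at an unadjusted p under 0.05, 0 with edgeR and 1 with DESeq2), where the gene that fell in 2MUT, Tmem192 (log2 fold change -0.87 ± 0.12), was the one that rose (0.58 ± 0.12). The amino acid transporter gene Slc36a1 had the largest rise of this list in 2MUT (0.86 ± 0.23). Of 12 other V-ATPase subunits, 4 rose and 1 fell in 2MUT, with Atp6v0e and Atp6v0a2 both at 0.76 and Atp6v1d at -1.07 ± 0.32. Atp6v1d was low there, with means of 4.18 RPM in Control and 1.39 RPM in 2MUT, on 5 to 41 reads per library. With 2-HG, limma called 0 of the 12, as did an unadjusted p under 0.05, edgeR and DESeq2.

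The other autophagy genes numbered 10 higher and 1 lower of 36 in 2MUT, where 16.5% of all genes rose and 17.3% fell. Ambra1 and Pik3c3 led the rises at 0.69 each, and Gabarap was at -0.50 ± 0.11. With 2-HG these genes numbered 2 higher and 6 lower of 39, where 16.1% of all genes rose and 16.7% fell. The 15.4% of the list that fell with 2-HG was near the share of all genes. There the autophagy receptor gene Calcoco1 (log2 fold change -1.02 ± 0.12) and Wdr45 (-0.57 ± 0.10) fell most, and Vmp1 (0.49 ± 0.11) and the ER-phagy receptor gene Fam134b (0.34 ± 0.10) rose, Vmp1 in 2MUT as well (0.39 ± 0.10). Of the regulators of lysosome genes, 2 rose and 3 fell of 14 in 2MUT, a share of 35.7% that was near the 33.8% of all genes, and 3 fell of 13 with 2-HG, where none rose by limma, at an unadjusted p under 0.05, with edgeR or with DESeq2. Flcn, which encodes a regulator of the Rag GTPases through which TFEB is controlled, fell in both experiments (-0.63 ± 0.10 and -0.70 ± 0.12). Its partner gene Fnip1 fell in 2MUT (-0.39 ± 0.11), where Zkscan3 and Rraga rose (0.32 ± 0.10 and 0.32 ± 0.11), and Ppargc1a fell in both experiments (-0.37 ± 0.11 in 2MUT and -0.79 ± 0.13 with 2-HG). The calls in 2MUT on Zkscan3 and Rraga held in 1 of 6 fits without a library, those on Atp6v1d in 2, Fnip1 in 3, Slc36a1, Ambra1 and Ppargc1a in 4 and Ctso and Vmp1 in 5, and that on Fam134b with 2-HG in 2.

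Macrophages are rich in lysosomal RNA, so their markers were read beside these results. The 9 listed macrophage and monocyte markers summed to 20.4 to 23.9 RPM in Control and 43.6 to 54.5 RPM in 2MUT. Of the 3 tested, Cd14 (log2 fold change 1.58 ± 0.17) and Lyz2 (1.24 ± 0.26) rose and Cd68 did not pass (-0.39 ± 0.22, adjusted p = 0.191). Lyz2 was at 0.148, 0.712 and 0.820 RPM in Control and at 2.47 to 2.75 RPM in 2MUT, on 1 to 20 reads per library. It reached the filter of 1 RPM only through 2MUT, so its test leans on the group where it was high. The macrophage receptor gene Csf1r, too low to test, was at 0, 0.570 and 0 RPM in Control and at 1.70, 1.46 and 0.688 RPM in 2MUT, without overlap. The pan-leukocyte gene Ptprc was at 0 in all 2MUT libraries, and Tyrobp and Fcer1g were at 0 in all Control and 2MUT libraries. For the 2-HG experiment the list had 10 markers, which summed to 26.3 to 27.6 RPM in 2-HG(-) and 22.5 to 27.1 RPM in 2-HG(+), where Cd68, itself a lysosomal membrane gene, fell (-0.51 ± 0.14) and Ptprc was at 0 in all 6 libraries. Osteoclast markers summed to at most 0.427 RPM, epithelial markers to at most 1.61 RPM and endothelial markers to at most 2.94 RPM in any library. The part of Cd14 and Lyz2 expression, or of the lower fibroblast sum, in the changes of lysosome genes was not tested.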

How the data were processed

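RNA from 12 libraries of MEF cells was analysed, 3 in each of the groups Control, 2MUT, 2-HG(-) and 2-HG(+), taken from the sample labels; 0 columns of the tables lacked a sample. The authors prepared Ion AmpliSeq transcriptome libraries, sequenced them on an Ion Proton, aligned reads with TMAP to the AmpliSeq mouse transcriptome reference and counted them with the AmpliSeqRNA plug-in; a genome build is not given in the sources used here. The authors deposited 1 table per experiment, whose RPM values sum to about 1000000 over its entries in each library. Whole reads were recovered from RPM (100% of values within 0.1 read of a whole number).

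The test was limma's (version 3.58.1, R 4.3.3), with its trend of variance on mean level, applied to log2(RPM + 1) over the 6 libraries of an experiment. Genes whose mean reached 1 RPM were kept, and an adjusted p-value (Benjamini-Hochberg) under 0.05 over all genes tested was the threshold. With 1 RPM added, fold changes of low genes are understated. Errors beside log2 fold changes are standard errors. The study's unmoderated test per gene, edgeR 4.0.16 and DESeq2 1.42.0 on recovered reads, other offsets, filters and scalings, a replicate block and each library left out were alternatives. Every gene of the list is accounted for, and of each wider list the 2 largest rises and falls past the threshold were eligible to be named, and some of these are not reported here. The genes, lists and tests were chosen with earlier results of these data known. Positions are from GENCODE M21 (GRCm38) and promoters from RefSeq (GRCm38.p6).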

Additional observations from a re-analysis of the deposited data

How the results depend on the processing

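With edgeR no call on any of the 32 genes changed in either experiment, and with median-of-ratios scaling none changed either. The per-gene test without moderation gave the fewest calls: 1021 genes higher and 1223 lower in 2MUT, with 7 and 1 of the list, and 1098 higher and 1139 lower with 2-HG, with 10 of the list lower. It ended the rises of Gusb, Tpp1, Lamp2 and Atp6v0d1 in 2MUT, and with 2-HG the rise of Gusb and the falls of Ctsb, Ctsd, Gaa, Hexa, Neu1 and Tpp1 (adjusted p from 0.0647 to 0.238). The list had 1 gene lower in 2MUT with no filter, with quantile normalization, with no trend and with the unmoderated test, since Gabarapl1 was lost. DESeq2 lost Lamp2 and gained Cd63 in 2MUT. With no trend, Tpp1, Lamp2 and Atp6v0d1 were lost in 2MUT (adjusted p = 0.121, 0.0867 and 0.0687), which left 8 genes higher. With no filter, Tpp1 and Lamp2 were also lost in 2MUT and Ctsd with 2-HG (adjusted p = 0.0794, 0.0618 and 0.0606), and Tpp1 had an adjusted p of 0.0513 with an offset of 0.1 RPM. Without each library in turn, the list had 8 to 11 genes higher and 1 to 2 lower in 2MUT, 1 to 4 higher and 11 to 16 lower with 2-HG, and 14 to 19 higher and 2 to 3 lower in the difference; all genes numbered 1271 to 1926 higher and 1484 to 1880 lower in 2MUT and 1146 to 1745 and 1176 to 1580 with 2-HG. Sign changed only in genes that had not passed: without each library in turn the log2 fold change in 2MUT ran from -0.086 to 0.11 for Ctsf, -0.097 to 0.15 for Ctsz, -0.017 to 0.25 for Neu1, -0.044 to 0.13 for Sqstm1, -0.13 to 0.20 for Stbd1, -0.0090 to 0.22 for Wipi1 and -0.17 to 0.086 for Becn1, and that of Npc1 with 2-HG was -0.011 without 2-HG(+) replicate 3. The cause was not tested.

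Replicate numbers did not pair the libraries: deviations of same-numbered libraries correlated at 0.0708, 0.0293 and 0.0319 in the mutant experiment and at -0.457, -0.158 and 0.0572 in the 2-HG experiment. Differently numbered libraries correlated from -0.138 to 0.0888 in the mutant experiment and from -0.414 to 0.48 in the 2-HG experiment. The highest value was that of 2-HG(-) replicate 2 with 2-HG(+) replicate 1. Libraries of the 2-HG experiment thus shared deviations across its groups that neither the main fit nor a replicate block models, and their cause was not tested. With the replicate block, 11 genes of the list were higher and 2 lower in 2MUT (1911 and 1987 of all genes), and 1 was higher and 14 lower with 2-HG (1217 and 1286 of all genes), where Glb1, Gusb, Atp6v1h and Gabarapl1 did not pass (adjusted p = 0.062, 0.0889, 0.0905 and 0.0667). Counting error limits Ctsh, on 17 to 53 reads per library with 2-HG. Ctsk, Ctss and Map1lc3b had at most 1, 3 and 9 reads in a library, and whether the kit's target reads these transcripts was not tested.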

Other observations

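Levels of the control groups differed between the tables for some genes. The mean of 2-HG(-) was 37.8-fold that of Control for Lamp2, 18.0-fold for Npc2 and 7.95-fold for Atp6v1a, and the mean of Control was 16.2-fold that of 2-HG(-) for Stbd1, 6.03-fold for Ctsf and 5.05-fold for Gla. These 6 of 32 genes (18.8%) compare with 13.6% of the 9612 genes tested in both tables that differed by at least 5-fold in either direction. For Stbd1, the level in 2-HG(+) (22.2 RPM) lay nearer to that of Control (25.6 RPM) than to that of 2-HG(-) (1.58 RPM). Control cells carried a vector and 2-HG(-) cells were given DMSO, and the tables were normalized over different sets of entries, and no label says whether the 2 experiments shared a passage or a batch, so the vector, the solvent, the table, the passage and the batch cannot be told apart.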
